A study of Arabidopsis thaliana with 30 samples.

Results

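Plant cells short of oxygen keep glycolysis running by fermentation. Sucrose synthases feed sucrose into the pathway, pyruvate decarboxylase turns pyruvate into acetaldehyde, and alcohol dehydrogenase reduces acetaldehyde to ethanol while it returns NAD+. Lactate dehydrogenase and alanine aminotransferase draw on the same pyruvate, and a class 1 phytoglobin scavenges the nitric oxide that builds up in such cells. Transcripts of the core of this set, ADH1, PDC1, SUS1, SUS4 and HB1, are textbook markers of low oxygen in Arabidopsis seedlings, and ADH1 is also known to respond to abscisic acid (ABA), the hormone of drought and seed dormancy.

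The 8 genes described here were taken by identifier from the table of 32833 genes, and all 8 passed the filter on low counts in every comparison. They are the sucrose synthases SUS1 (AT5G20830) and SUS4 (AT3G43190), the pyruvate decarboxylases PDC1 (AT4G33070) and PDC2 (AT5G54960), alcohol dehydrogenase ADH1 (AT1G77120), lactate dehydrogenase LDH1 (AT4G17260), alanine aminotransferase AlaAT1 (AT1G17290) and the class 1 phytoglobin HB1 (AT2G16060, also called PGB1). They were chosen by name from the pathway, at a time when earlier results of these data were known. The study asked how the m7G cap of mRNA bears on the ABA response. It sequenced polyadenylated RNA from whole 5-day-old seedlings kept for 3 h in mock medium or in medium with 50 µM ABA, in 10 groups of 3 libraries. The genotypes were wild type (WT, Col-0), the T-DNA insertion mutant dxo1, which lacks the NAD-RNA decapping enzyme DXO1, and dxo1 carrying a transgene for the catalytic part of DXO1 alone (dxo1/cDXO1, labelled DXO1-C/dxo1) or for its N-terminal extension alone (dxo1/NTE, labelled DXO1-N/dxo1). The fifth genotype was rnmt1-3 (labelled rnmt1), a mutant of the cap methyltransferase RNMT1. The paper states that DXO1 also activates RNMT1 through its N-terminal extension, and treats dxo1, dxo1/cDXO1 and rnmt1-3 as impaired in m7G capping. Both transgenes were driven by the DXO1 promoter, both transgenic lines also carry the dxo1 insertion, and the number of independent lines sequenced is not given in the sources used here.

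Library totals ran from 17961410 to 23249299 counts, and levels are given as CPM, counts scaled to a common library total. Reads assigned to DXO1 lay at 40.3 to 48.3 CPM in WT, 17.3 to 23.7 CPM in dxo1, 212 to 275 CPM in dxo1/cDXO1 and 222 to 274 CPM in dxo1/NTE, the order that an insertion mutant and its transgenic lines would give, though a gene-level count cannot tell the transgenes apart. RNMT1 stayed at 14.1 to 16.3 CPM in rnmt1-3 against 16.4 to 21.5 CPM in WT. An edited allele need not change its transcript level, so this value does not check that label. In dxo1/NTE, RNMT1 ran from 18.1 to 28.5 CPM under mock and from 21.01 to 60.3 CPM under ABA. Every dxo1/NTE library thus lay above the WT libraries under ABA, where WT had 16.4 to 18.4 CPM. The cause of the high RNMT1 values in dxo1/NTE was not tested. Summed root markers ranged from 3314 to 4619 CPM under mock and 3236 to 4005 CPM under ABA, and summed shoot markers from 20702 to 28635 and 16174 to 28166 CPM, so both organs were present in every library. In bulk seedlings, fewer cells of a type and less RNA per cell cannot be told apart. The study calls the libraries of a group biological replicates. Whether they came from separate cultures or sowings is not given in the sources used here, and the p-values measure the spread between these libraries. One feature of the libraries touches every comparison that uses mock samples. All 8 genes were highest in mock replicate 3 of every genotype, a pattern held by 271 of 19069 genes (1.42%), and WT mock replicate 1 was low in all 8 beside the other WT mock libraries. In dxo1/NTE, mock replicate 1 was likewise the lowest of its group in all 8. The gap was wide for PDC1 (61.3, 266 and 436 CPM in replicates 1 to 3) and narrow for PDC2 (112.5, 115 and 134 CPM). The labels do not say what the replicate number stands for.

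The 250 bases before the annotated gene start are shown for ADH1 and PDC1, the ethanol fermentation genes whose levels varied most, with the letters of motifs known from anaerobic and ABA responses marked. In the RefSeq annotation of TAIR10.1, the ADH1 window lies on the plus strand at chr1:28975005-28975254 and the PDC1 window on the minus strand at chr4:15954804-15955053. Both are printed 5′ to 3′ toward the gene, and capitals mark ACGTG (the core of the ABA-responsive element) and GGTTT (the GT motif of the anaerobic response element), matched on either strand, so that a match on the opposite strand reads CACGT or AAACC. The ADH1 match spells CACGTG because the motif overlaps itself on both strands.
ADH1: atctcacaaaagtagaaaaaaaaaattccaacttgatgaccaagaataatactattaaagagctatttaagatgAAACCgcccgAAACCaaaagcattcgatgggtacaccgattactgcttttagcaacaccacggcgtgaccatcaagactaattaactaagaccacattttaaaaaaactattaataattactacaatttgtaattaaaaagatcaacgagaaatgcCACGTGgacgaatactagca
PDC1: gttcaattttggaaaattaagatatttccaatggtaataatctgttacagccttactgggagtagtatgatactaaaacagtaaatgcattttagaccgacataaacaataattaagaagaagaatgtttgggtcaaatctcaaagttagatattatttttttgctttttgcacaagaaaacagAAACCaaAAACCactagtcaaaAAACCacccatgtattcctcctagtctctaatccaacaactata
ADH1 held the ACGTG core once on each strand, ending 15 bases before the start on the plus strand, and GGTTT at 2 places. PDC1 held GGTTT at 3 places within 66 bases of its start and no ACGTG. Of all 27443 windows of this kind, 22.9% held ACGTG, 54.7% held GGTTT and 4.55% held GCCCC, the GC motif of the anaerobic element. Among the 8 genes, 2 held ACGTG (ADH1 and PDC2), 5 held GGTTT (ADH1, PDC1, SUS1, LDH1 and AlaAT1) and 0 held GCCCC. A match describes letters only, and the windows of PDC2 and HB1 also overlap a neighbouring gene, so they are not printed.

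The genes sit apart from one another in the genome. By the same annotation, SUS1 lies on chromosome 5 at 7050217 to 7055398, SUS4 on chromosome 3 at 15179010 to 15184105, PDC1 on chromosome 4 at 15952257 to 15954803, PDC2 on chromosome 5 at 22310553 to 22312832 and ADH1 on chromosome 1 at 28975255 to 28977417. LDH1 lies on chromosome 4 at 9673897 to 9675540, AlaAT1 on chromosome 1 at 5922332 to 5926400 and HB1 on chromosome 2 at 6982531 to 6983777. The coding sequences of SUS1 and SUS4 are 84.3% identical and those of PDC1 and PDC2 76.0% identical, and neither pair shares a run of 50 identical coding bases. The last 61 bases of ADH1 overlap AT1G77122 on the opposite strand. Counts of that neighbour lay between 202 and 373 in every library, against 401 to 26719 for ADH1, and how the counting treated strand is not given in the sources used here.

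Levels differed widely among the genes. Per transcript length, as TPM, which scales counts by gene length and library, group means ran from 57.1 to 811 TPM for ADH1 and from 32 to 564 TPM for HB1. The other group means in TPM ran for SUS1 from 24.1 to 80.5, for SUS4 from 4.93 to 48.1, for PDC1 from 12.4 to 309.6, for PDC2 from 47.7 to 121, for LDH1 from 16.8 to 42.1 and for AlaAT1 from 201 to 338. ADH1 and AlaAT1 were thus the most abundant per length in most groups, and SUS4 the scarcest or next to it in every group. Within single libraries PDC1 spanned the widest range, from 8.59 to 722 CPM, a ratio of 84. AlaAT1 spanned the narrowest range, from 264 to 625 CPM, a ratio of 2.36.

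**Figure D1:**
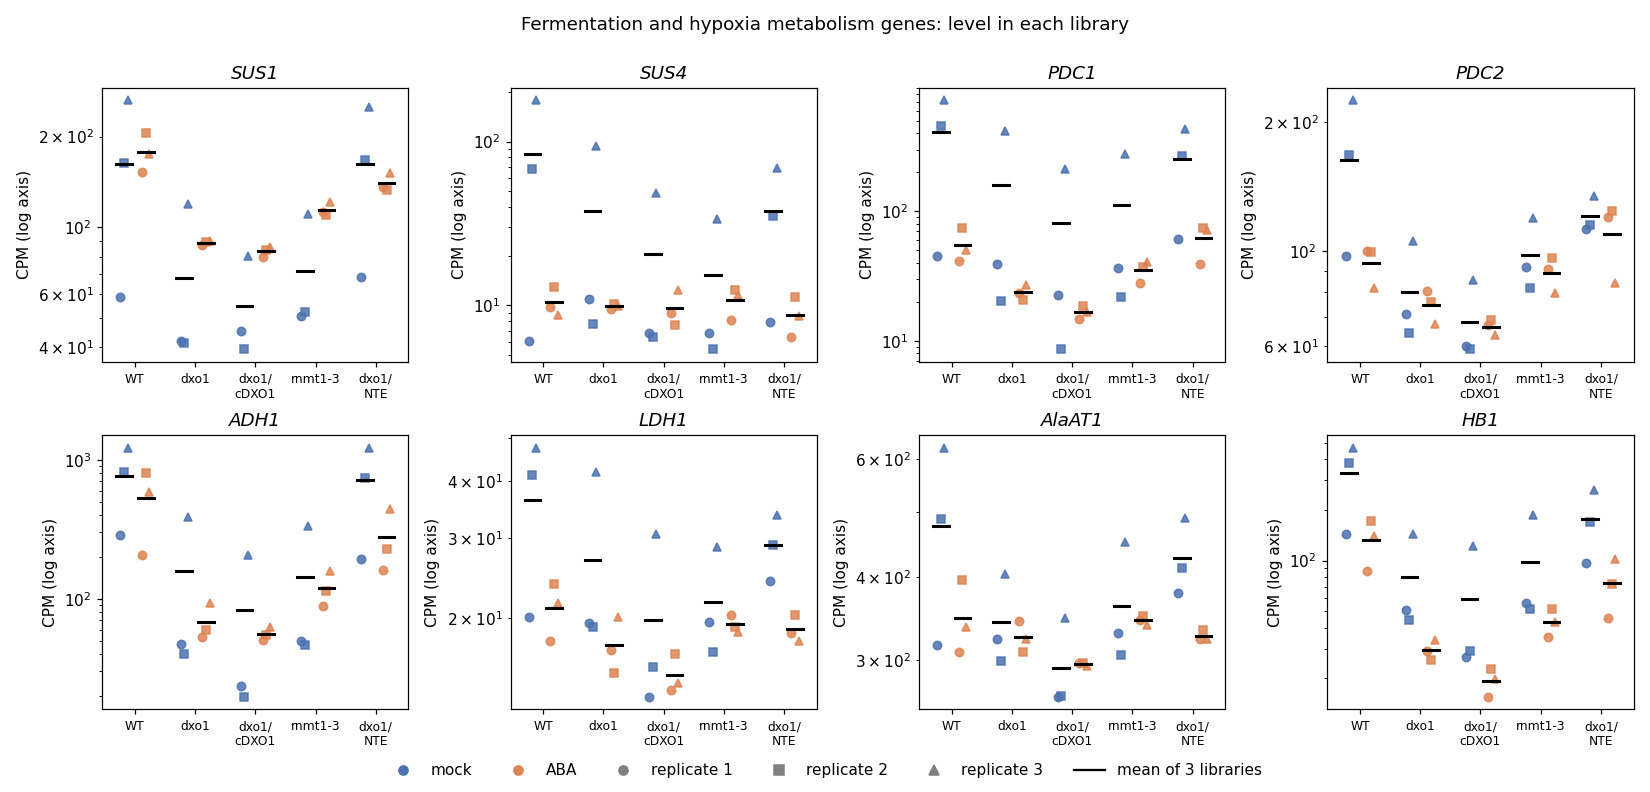
Level of each gene in each of the 30 libraries, in CPM on a log axis, by genotype and treatment. Points are libraries with the marker giving the replicate number, and bars are means of 3; the triangles of mock replicate 3 lie at the top of every mock group for all 8 genes.

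For PDC1, ADH1, SUS4, HB1 and LDH1, mock replicate 3 stood further above the mean of replicates 1 and 2 in dxo1, dxo1/cDXO1 and rnmt1-3 than in WT or dxo1/NTE. For LDH1 the margin was small (1.58 in rnmt1-3, 1.55 in WT). The order depended on the ratio used. Over replicate 1 alone, SUS4 stood at 29.8 in WT and 8.64 in dxo1, and PDC1 at 16.0 and 10.7, while ADH1 stood at 4.24 and 8.17. PDC1, the entry enzyme of ethanol fermentation, reached 39.3, 20.4 and 419.6 CPM in dxo1 mock replicates 1, 2 and 3, a ratio of 14.1 of replicate 3 over the mean of the other libraries. The same ratio for PDC1 was 13.6 in dxo1/cDXO1, 9.59 in rnmt1-3, 2.88 in WT and 2.66 in dxo1/NTE. ADH1 showed 8.9, 9.56 and 6.91 in dxo1, dxo1/cDXO1 and rnmt1-3, and SUS4 showed 10.1, 7.36 and 5.52. AlaAT1 and PDC2 moved least, by 1.24 to 1.55 and 1.18 to 1.7. For PDC2 and AlaAT1 the ratio was highest in WT, and SUS1 had 2.38 in WT beside 1.9 in dxo1/cDXO1 and 2.14 in rnmt1-3. Under ABA, 0 of the 8 genes were highest in the same replicate of all 5 genotypes, while ADH1 was lowest in ABA replicate 1 and PDC2 lowest in ABA replicate 3 of all 5. Of the lists of other genes, 17 of 41 other low-oxygen genes, 4 of 25 cytosolic glycolysis genes and 0 of 11 touch genes were highest in mock replicate 3 of every genotype. The summed low-oxygen list, 699 and 647 CPM in dxo1 mock replicates 1 and 2, stood at 1472 CPM in replicate 3, and in WT it was 973, 2342 and 2953 CPM. The summed touch and handling genes stood at 377, 405 and 631 CPM in dxo1 mock replicates 1 to 3, and they were also highest in replicate 3 of dxo1/cDXO1 (358, 319.6 and 526 CPM) and rnmt1-3 (471, 376 and 523 CPM), but not of WT (337, 559.8 and 448 CPM) or dxo1/NTE (428, 366 and 345 CPM). Their part in the replicate 3 values was not tested. Summed root and shoot markers of mock replicate 3 lay within the range of the other mock libraries, pooled over genotypes. Within genotypes, summed shoot markers were lowest in replicate 3 of dxo1 (22658, 22880 and 22506 CPM in replicates 1 to 3). The same held in dxo1/cDXO1 (28635, 26847 and 24430 CPM) and rnmt1-3 (26028, 24831 and 22650 CPM), but not in WT or dxo1/NTE. The part of organ makeup in the replicate 3 values was not tested.

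**Figure D2:**
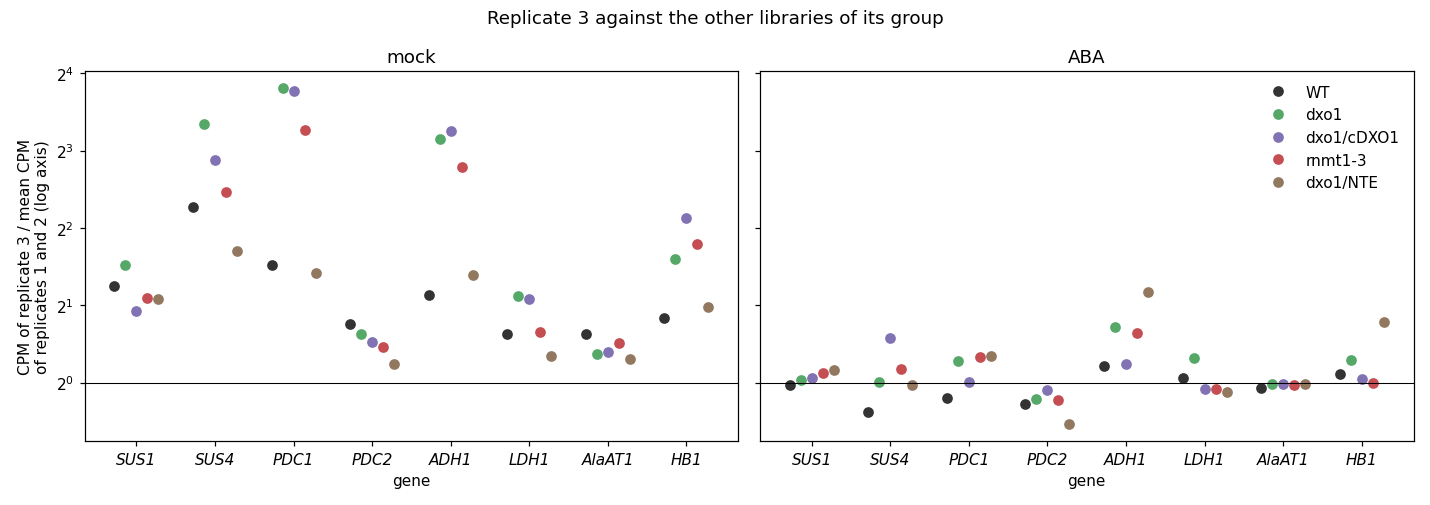
CPM of replicate 3 divided by the mean CPM of replicates 1 and 2, per gene and genotype, under mock and under ABA, on a log axis. Every mock point lies above 1, with PDC1 in dxo1 at 14.1; ABA points scatter on both sides of 1.

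After ABA, HB1 was lower in all 5 genotypes and PDC1 in 4, SUS4 in 2, and SUS1 was higher in 2. A gene passed the test at an adjusted p below 0.05 (edgeR quasi-likelihood test, Benjamini-Hochberg over all genes tested, as throughout). Each SE given is the size of the log2 fold change divided by the square root of its F statistic, not a separately fitted error. In WT, HB1 was at 144, 381 and 469 CPM in mock replicates 1 to 3 and at 86.8, 172 and 140.2 CPM after ABA. The groups overlapped, since mock replicate 1 fell inside the ABA range, and the log2 fold change was -1.31 ± 0.38 (SE), adjusted p = 0.04998. In dxo1 HB1 went from 51, 44.3 and 144 CPM to 29.2, 25.6 and 33.6 CPM, and every ABA library lay below every mock one (log2 fold change -1.39 ± 0.31 (SE), adjusted p = 0.00342). In dxo1/cDXO1 HB1 went from 26.8, 28.9 and 122 CPM to 15.5, 22.8 and 19.7 CPM (log2 fold change -1.54 ± 0.42 (SE), adjusted p = 0.0133). In rnmt1-3 HB1 went from 56, 51.6 and 186 CPM to 35.1, 51.4 and 43.1 CPM (-1.12 ± 0.34 (SE), adjusted p = 0.0244). In dxo1/NTE HB1 went from 96.4, 169 and 262 CPM to 45.6, 72.5 and 102 CPM (-1.19 ± 0.29 (SE), adjusted p = 0.00542). HB1 groups did not overlap in dxo1, dxo1/cDXO1 and rnmt1-3, and overlapped in WT and dxo1/NTE. In rnmt1-3 the gap was slight, with the nearest libraries at 51.4 CPM under ABA and 51.6 CPM under mock. The share of all genes without overlap was not counted. Without mock replicate 3 the change was smaller in every genotype but held its call in dxo1 (-0.65 (adjusted p = 3.61e-05)), dxo1/cDXO1 (-0.49 (adjusted p = 0.005)) and dxo1/NTE (-0.78 (adjusted p = 0.0242)). The rnmt1-3 call was lost without mock replicate 3 (-0.28 (adjusted p = 0.0726)), ABA replicate 1 (-1.0 (adjusted p = 0.0992)) or ABA replicate 3 (-1.12 (adjusted p = 0.0725)), and the dxo1/cDXO1 call without ABA replicate 1 (-1.41 (adjusted p = 0.0697)). In WT it was lost without any single library but mock replicate 1, at adjusted p of 0.0931 to 0.176.

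PDC1 passed in 4 of the 5 genotypes. In WT it went from 45.1, 457 and 722 CPM under mock to 41.5, 74.1 and 50.5 CPM under ABA, a log2 fold change of -2.86 ± 0.76 (SE), adjusted p = 0.0334. The WT call was lost without any single library but mock replicate 1, at adjusted p of 0.0638 to 0.136. In dxo1 it went from 39.3, 20.4 and 419.6 CPM to 23.4, 20.7 and 26.9 CPM (-2.70 ± 0.75 (SE), adjusted p = 0.0133). In dxo1/cDXO1 it went from 22.6, 8.59 and 212 CPM to 14.8, 18.6 and 16.9 CPM (-2.19 ± 0.74 (SE), adjusted p = 0.0429). These mock means rest on replicate 3: without it the dxo1/cDXO1 change turned to 0.14 (adjusted p = 0.731) and the dxo1 change shrank to -0.30 (adjusted p = 0.247). The dxo1/cDXO1 call was also lost without any 1 ABA library (adjusted p of 0.105 to 0.137), and the dxo1 call without ABA replicate 1 or 2 (0.0525 and 0.0674). In dxo1/NTE PDC1 went from 61.3, 266 and 436 CPM to 39.4, 74.7 and 72.4 CPM (-1.95 ± 0.45 (SE), adjusted p = 0.00428), and the call held without any single library. In rnmt1-3 PDC1 went from 36.6, 21.7 and 279 CPM to 28, 36.9 and 40.8 CPM (-1.62 ± 0.62 (SE), adjusted p = 0.0703). It did not pass, but did without mock replicate 1 (-2.03 (adjusted p = 0.0202)) or mock replicate 2 (-2.10 (adjusted p = 0.00369)).

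SUS4, the sucrose synthase with the strongest low-oxygen response in Arabidopsis, passed in dxo1 and dxo1/NTE. In dxo1 SUS4 was at 10.9, 7.72 and 94.3 CPM under mock and at 9.46, 10.2 and 9.89 CPM under ABA (log2 fold change -1.89 ± 0.64 (SE), adjusted p = 0.0416), and the difference rests on mock replicate 3, since without it the value was 0.12 (adjusted p = 0.658). Leaving out any 1 ABA library also lost the call (adjusted p of 0.105 to 0.115). In dxo1/NTE it was at 7.89, 34.9 and 69.4 CPM and 6.42, 11.2 and 8.64 CPM (-2.01 ± 0.50 (SE), adjusted p = 0.0066). In WT it was at 6.01, 68.3 and 179 CPM and 9.72, 12.9 and 8.66 CPM, and missed the test (-3.0 ± 0.89 (SE), adjusted p = 0.0506) unless WT mock replicate 1 was left out (-3.54 (adjusted p = 1.49e-05)). The dxo1/NTE value was -1.19 (adjusted p = 0.0367) without mock replicate 3. Its paralog SUS1 passed in other genotypes and upward. SUS1 rose in dxo1/cDXO1, from 45.2, 39.4 and 80.4 CPM to 80.0, 84.4 and 86 CPM (0.67 ± 0.17 (SE), adjusted p = 0.00926), and in rnmt1-3, from 51, 52.5 and 111 CPM to 113, 109.7 and 121 CPM (0.73 ± 0.20 (SE), adjusted p = 0.0121). In both genotypes mock replicates 1 and 2 lay below every ABA library and mock replicate 3 among them. In dxo1, SUS1 did not pass (0.44 ± 0.27 (SE), adjusted p = 0.28) but was higher without mock replicate 3 (1.14 (adjusted p = 6.3e-11)). Without mock replicate 3 the SUS1 change was 1.02 (adjusted p = 4.61e-09) in dxo1/cDXO1 and 1.18 (adjusted p = 2.87e-10) in rnmt1-3. The rnmt1-3 call was lost without mock replicate 1 (0.55 (adjusted p = 0.0522)) and without mock replicate 2 (0.56 (adjusted p = 0.0514)).

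ADH1 passed in 1 genotype of the 5, dxo1/NTE, where it went from 193, 734 and 1219.9 CPM to 161, 229 and 438 CPM (-1.30 ± 0.45 (SE), adjusted p = 0.0441). That call was lost without mock replicate 3 (-0.67 (adjusted p = 0.261)), mock replicate 2 (-1.29 (adjusted p = 0.116)), ABA replicate 1 (-1.03 (adjusted p = 0.167)) or ABA replicate 2 (-1.18 (adjusted p = 0.139)). In the 3 genotypes with low mock replicates 1 and 2, ADH1 after ABA lay above those libraries and below replicate 3: in dxo1 the mock libraries had 47.6, 39.8 and 389 CPM and the ABA libraries 52.9, 59.9 and 92.6 CPM. The ADH1 change in dxo1, -1.16 ± 0.58 (SE), adjusted p = 0.169, turned upward without mock replicate 3, to 0.69 (adjusted p = 0.00204). It turned likewise in dxo1/cDXO1, from -0.50 to 1.41 (adjusted p = 2.24e-09), and in rnmt1-3, from -0.20 to 1.35 (adjusted p = 1.53e-06). So the direction of the ADH1 change after ABA in these 3 genotypes depended on 1 library. LDH1, which makes lactate, and AlaAT1, which makes alanine from pyruvate, fell in dxo1/NTE (-0.54 ± 0.12 (SE), adjusted p = 0.00288 and -0.31 ± 0.09 (SE), adjusted p = 0.0144). Their mock and ABA libraries did not overlap, though the share of all genes without overlap was not counted. The AlaAT1 call was lost without mock replicate 3 (-0.20 (adjusted p = 0.0777)) or ABA replicate 1 (-0.31 (adjusted p = 0.0591)). PDC2 passed in 0 of the 5 genotypes, at an unadjusted p below 0.05 in WT alone and with DESeq2 in WT, and its log2 fold changes ranged from -0.79 in WT to 0.03 in dxo1/cDXO1.

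**Figure D3:**
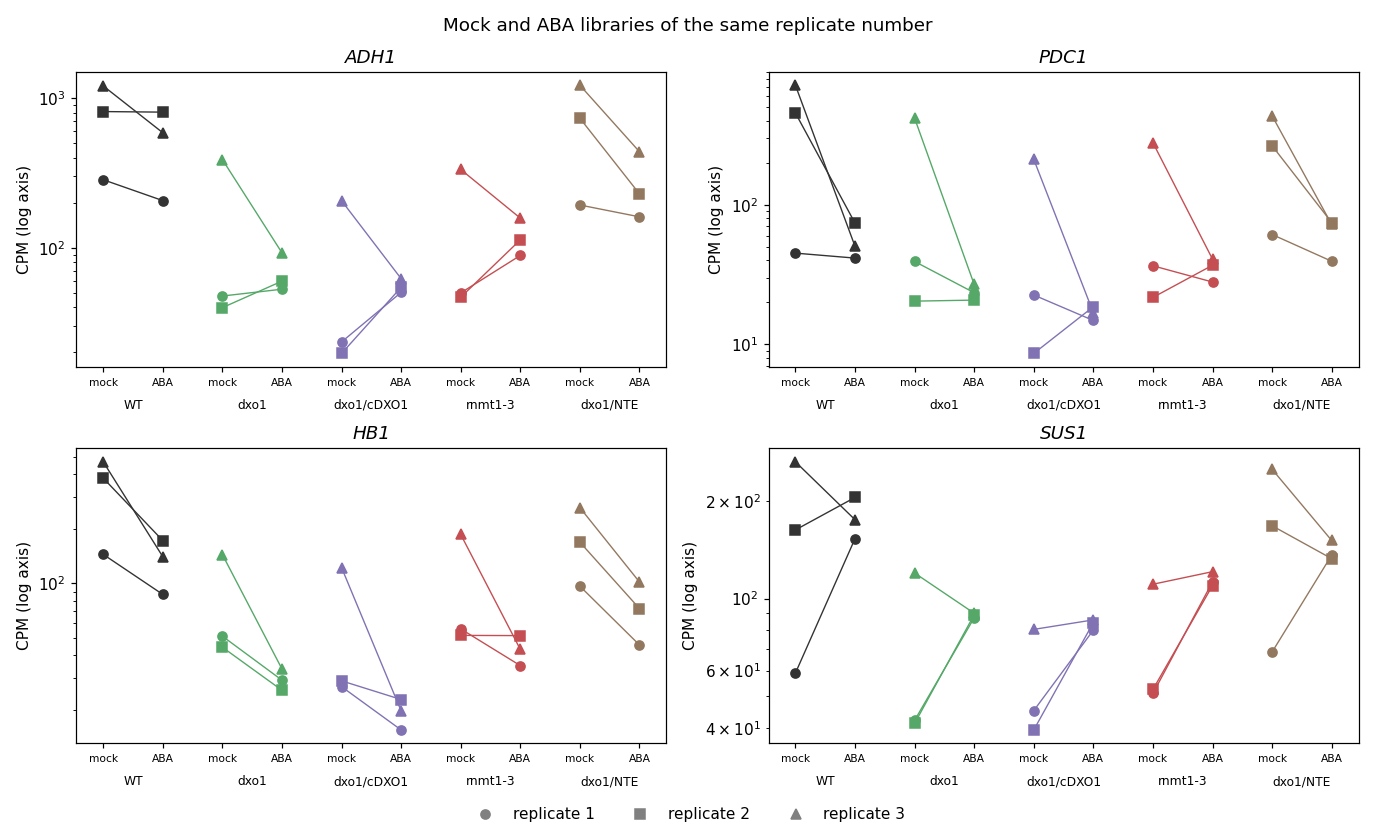
CPM of ADH1, PDC1, HB1 and SUS1 in the mock and ABA libraries of each genotype on a log axis, with lines joining libraries of the same replicate number for orientation only. Lines of replicates 1 and 2 in dxo1, dxo1/cDXO1 and rnmt1-3 rise for ADH1, and those of replicate 3 fall.

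Counted by genotype, 2 of 8 fell in WT, where 6.47% of all genes fell and 10% rose. In dxo1, 3 of 8 fell against 11.8% (rising: 0 of 8 against 14.1%), and in dxo1/NTE 6 of 8 fell against 13.4% (rising: 0 of 8 against 15.4%). In dxo1/cDXO1, 2 of 8 fell against 10.9% and 1 rose against 13.6%, and in rnmt1-3 1 fell against 11.4% and 1 rose against 14.7%. The ABA effect was not shown to differ between WT and any other genotype. For the interaction of genotype with ABA, 0 of the 8 genes passed in dxo1, dxo1/cDXO1, rnmt1-3 and dxo1/NTE, where 0.272%, 0.233%, 0.126% and 0% of all genes did (edgeR), 1, 2, 2 and 1 of the 8 reached an unadjusted p below 0.05, and DESeq2 called 0 in each. The SE of the interaction for PDC1, derived from the edgeR F statistic, was 1.00 to 1.30 on the log2 scale. DESeq2 gave 1.24 to 1.54, so a several-fold difference could miss the test. For ABA against mock, DESeq2 called 4 of the 8 genes in WT, 3 in dxo1/NTE and 0 in each of the other 3 genotypes, and it called HB1 in 0 of the 5. It gave no p-value for SUS4 and ADH1 in dxo1 or for ADH1 in dxo1/cDXO1. Without WT mock replicate 1, PDC2 passed in all 4 interactions, with log2 differences of 0.97 to 1.07.

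After ABA, ADH1, HB1, PDC1 and SUS1 were lower in dxo1, dxo1/cDXO1 and rnmt1-3 than in WT, with no overlap of libraries. Overlap was described for the fermentation genes only, and the share of all genes without overlap was not counted. ADH1, the last step to ethanol, was at 207, 807 and 588 CPM in WT. It was at 52.9, 59.9 and 92.6 CPM in dxo1, 50.4, 54.5 and 62.2 CPM in dxo1/cDXO1 and 88.9, 113 and 158 CPM in rnmt1-3. Every library of these 3 genotypes lay below every WT library, by 7.55-fold in dxo1 (log2 fold change -2.92 ± 0.36 (SE), adjusted p = 3.61e-05), 8.79-fold in dxo1/cDXO1 (-3.14 ± 0.34 (SE), adjusted p = 6.19e-06) and 4.16-fold in rnmt1-3 (-2.06 ± 0.34 (SE), adjusted p = 0.000468). In dxo1/NTE, ADH1 was at 161, 229 and 438 CPM, which overlapped WT and missed the test (-0.94 ± 0.39 (SE), adjusted p = 0.169). It passed without WT ABA replicate 1 (-1.32 (adjusted p = 0.00484)) and without dxo1/NTE ABA replicate 3 (-1.42 (adjusted p = 0.0485)).

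HB1, the phytoglobin, was at 86.8, 172 and 140.2 CPM in WT after ABA. It was at 29.2, 25.6 and 33.6 CPM in dxo1 (4.38-fold lower, log2 fold change -2.13 ± 0.18 (SE), adjusted p = 1.71e-06), and at 15.5, 22.8 and 19.7 CPM in dxo1/cDXO1 (6.34-fold lower, -2.66 ± 0.20 (SE), adjusted p = 2.11e-07). It was at 35.1, 51.4 and 43.1 CPM in rnmt1-3 (2.89-fold lower, -1.53 ± 0.19 (SE), adjusted p = 3.88e-05). None of these libraries reached the lowest WT library. In dxo1/NTE HB1 was at 45.6, 72.5 and 102 CPM, overlapping WT (-0.85 ± 0.24 (SE), adjusted p = 0.0487), and that call was lost without any 1 of 4 libraries, dxo1/NTE replicates 1 and 2 and WT replicates 2 and 3, at adjusted p of 0.142 to 0.167.

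PDC1 was at 41.5, 74.1 and 50.5 CPM in WT after ABA. It was lower in dxo1 (23.4, 20.7 and 26.9 CPM, 2.27-fold, -1.18 ± 0.16 (SE), adjusted p = 8.57e-05) and in dxo1/cDXO1 (14.8, 18.6 and 16.9 CPM, 3.05-fold, -1.61 ± 0.16 (SE), adjusted p = 3.95e-06). In rnmt1-3 (28, 36.9 and 40.8 CPM) the change was smaller, -0.56 ± 0.17 (SE), adjusted p = 0.02, with no overlap, and was lost without WT replicate 2 (-0.31 (adjusted p = 0.081)), rnmt1-3 replicate 1 (-0.42 (adjusted p = 0.0998)) or rnmt1-3 replicate 2 (-0.59 (adjusted p = 0.0552)). SUS1 was at 153, 205 and 175 CPM in WT, 87.3, 89.2 and 90.1 CPM in dxo1, 80.0, 84.4 and 86 CPM in dxo1/cDXO1, 113, 109.7 and 121 CPM in rnmt1-3 and 136, 133 and 151 CPM in dxo1/NTE. No library of the other 4 genotypes reached a WT library, and the log2 fold changes were -0.96 ± 0.08 (SE), adjusted p = 2.05e-06 in dxo1, -0.97 ± 0.09 (SE), adjusted p = 1.04e-06 in dxo1/cDXO1, -0.54 ± 0.09 (SE), adjusted p = 0.000391 in rnmt1-3 and -0.33 ± 0.09 (SE), adjusted p = 0.0454 in dxo1/NTE. The dxo1/NTE call was lost without any 1 of the same 4 libraries, at adjusted p of 0.111 to 0.181. PDC2 was 1.22-fold lower in dxo1 (-0.29 ± 0.09 (SE), adjusted p = 0.0224) and 1.3-fold lower in dxo1/cDXO1 (-0.38 ± 0.08 (SE), adjusted p = 0.00217). The dxo1 call for PDC2 was lost without WT replicate 2 (-0.25 (adjusted p = 0.0567)), dxo1 replicate 2 (-0.30 (adjusted p = 0.0569)) or dxo1 replicate 3 (-0.22 (adjusted p = 0.112)). LDH1 passed in 1 genotype, dxo1/cDXO1, at -0.38 ± 0.11 (SE), adjusted p = 0.0141, and not without WT replicate 2 (-0.29 (adjusted p = 0.0549)), dxo1/cDXO1 replicate 1 (-0.33 (adjusted p = 0.0653)) or replicate 3 (-0.34 (adjusted p = 0.0544)). SUS4, at 6.42 to 12.9 CPM across all 15 ABA libraries, did not pass in any genotype, with log2 differences of -0.04 ± 0.15 (SE), 0 ± 0.18 (SE), 0.13 ± 0.17 (SE) and -0.23 ± 0.20 (SE).

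**Figure D4:**
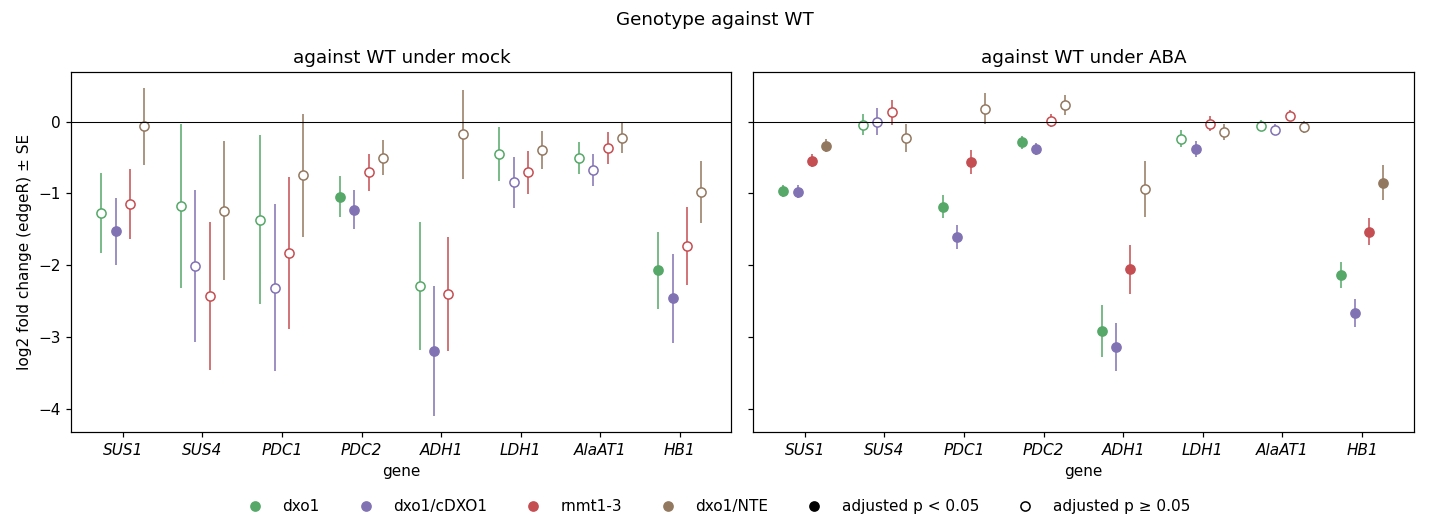
log2 fold change against WT (edgeR) for each gene with its SE, under mock and under ABA, with filled circles for adjusted p below 0.05. Under mock the SE reached 1.17; under ABA it stayed at or below 0.39, and ADH1 in dxo1/cDXO1 had the largest fall.

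Counted against WT after ABA, 5 of 8 were lower in dxo1 where 21.2% of all genes were, 6 of 8 in dxo1/cDXO1 (21.8%), 4 of 8 in rnmt1-3 (16.6%) and 2 of 8 in dxo1/NTE (3.38%). None was higher. The median over the 8 genes was -0.62, -0.68, -0.28 and -0.18 on the log2 scale, against medians near 0 over all genes. In a fit over all 30 libraries, where the spread of the mock libraries enters, 2, 2, 1 and 0 of the 8 genes were called. The summed shoot markers also differed between genotypes after ABA, at 16174 to 20629 CPM in WT and 26773 to 28166 CPM in dxo1/cDXO1, where 7 of 8 such genes were higher, with 5 of 8 higher in dxo1 and in rnmt1-3. Their part in the result was not tested. Root markers were 3 higher and 1 lower of 10 in the same comparison.

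Under mock, HB1 and PDC2 were lower in dxo1, and ADH1, HB1, PDC2 and SUS1 in dxo1/cDXO1, while the wide spread of the mock libraries gave large errors. HB1 in WT was at 144, 381 and 469 CPM, and in dxo1 at 51, 44.3 and 144 CPM (-2.07 ± 0.53 (SE), adjusted p = 0.0251). Every dxo1 library lay below every WT library, if only just for replicate 3. ADH1 was at 285, 814 and 1208 CPM in WT, 47.6, 39.8 and 389 CPM in dxo1, 23.5, 19.7 and 207 CPM in dxo1/cDXO1 and 50.0, 46.7 and 334 CPM in rnmt1-3. It passed in dxo1/cDXO1 (-3.19 ± 0.91 (SE), adjusted p = 0.0343), with no overlap and at -5.10 (adjusted p = 0.0047) without dxo1/cDXO1 mock replicate 3, and not in dxo1 (-2.29 ± 0.89 (SE), adjusted p = 0.0966) or rnmt1-3 (-2.40 ± 0.79 (SE), adjusted p = 0.0675). dxo1/cDXO1 was also lower in HB1 (-2.46 ± 0.62 (SE), adjusted p = 0.0218), PDC2 (-1.23 ± 0.27 (SE), adjusted p = 0.0126) and SUS1 (-1.52 ± 0.47 (SE), adjusted p = 0.0447). PDC2 passed in dxo1 too (-1.04 ± 0.29 (SE), adjusted p = 0.0336), with values of 97.1, 168 and 225 CPM in WT and 71.3, 64.3 and 105 CPM in dxo1. PDC1, at 45.1, 457 and 722 CPM in WT, passed in no genotype under mock.

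In these comparisons 2 of 8 were lower in dxo1 against 11.8% of all genes, 4 of 8 in dxo1/cDXO1 against 11.4%, 0 of 8 in rnmt1-3 against 8.76% and 0 of 8 in dxo1/NTE against 0.755%. None was higher, where 13%, 12.1%, 10.1% and 0.85% of all genes were, in the same order. In rnmt1-3, 6 of 8 reached an unadjusted p below 0.05 and DESeq2 called 1 (PDC2). In dxo1/NTE, 1 of 8 reached it and DESeq2 called 0. These counts depended on single libraries. Without WT mock replicate 1, all 8 passed in rnmt1-3 and in dxo1/cDXO1, 6 in dxo1 and 4 in dxo1/NTE. The rnmt1-3 values without it were for instance -2.78 (adjusted p = 0.00288) for ADH1 and -2.08 (adjusted p = 0.000959) for HB1. Without dxo1/cDXO1 mock replicate 1 or replicate 2, 0 of the 8 passed in dxo1/cDXO1, and the same held in dxo1 without replicate 1 or 2 of dxo1 mock or replicate 2 or 3 of WT mock. In dxo1/cDXO1, the SUS1 and ADH1 calls were also lost without WT mock replicate 2 or 3, and the HB1 call without WT mock replicate 3, at adjusted p of 0.0547 to 0.127. ADH1 passed in dxo1 without dxo1 mock replicate 3 (-4.15 (adjusted p = 0.0093)). PDC1 in dxo1 changed by -1.36 ± 1.17 (SE) and was -3.78 (adjusted p = 0.0618) without dxo1 mock replicate 3.

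dxo1/NTE, with the N-terminal extension, had more of 5 of these transcripts than its dxo1 parent after ABA. After ABA, 161, 229 and 438 CPM of ADH1 in dxo1/NTE stood above 52.9, 59.9 and 92.6 CPM in dxo1 (3.95-fold, 1.98 ± 0.26 (SE), adjusted p = 4.06e-05), with no overlap. HB1 was 2.44-fold higher (1.28 ± 0.19 (SE), adjusted p = 0.000102), PDC1 2.58-fold (1.37 ± 0.17 (SE), adjusted p = 2.64e-05), SUS1 1.55-fold (0.63 ± 0.06 (SE), adjusted p = 1.23e-06) and PDC2 1.44-fold (0.53 ± 0.12 (SE), adjusted p = 0.00305). The libraries of these 5 genes did not overlap, though the share of all genes without overlap was not counted. The 5 calls held without any single library, while the fit over all 30 libraries called 0. LDH1, AlaAT1 and SUS4 did not pass, with log2 differences of 0.10 ± 0.11 (SE), -0.02 ± 0.06 (SE) and -0.18 ± 0.17 (SE). Under mock, ADH1 (2.12 ± 0.76 (SE), adjusted p = 0.0478), SUS1 (1.21 ± 0.43 (SE), adjusted p = 0.0453) and PDC2 (0.54 ± 0.14 (SE), adjusted p = 0.0127) were higher in dxo1/NTE, and DESeq2 called none of these 3 but 1 other gene (AlaAT1). Each lost its edgeR call without dxo1 mock replicate 1 or 2 (adjusted p of 0.0597 to 0.156), ADH1 and SUS1 also without dxo1/NTE mock replicate 2 or 3 (0.0973 to 0.189). Without dxo1 mock replicate 3 all 8 passed, with ADH1 at 3.98 (adjusted p = 0.000293) and SUS1 at 1.91 (adjusted p = 0.0023). So 5 of 8 were higher after ABA where 17.2% of all genes were, and 3 of 8 under mock against 14.8%. These comparisons with dxo1 share the dxo1 libraries with those of dxo1 against WT, so they are not independent of them.

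In dxo1/cDXO1, with the catalytic part, none of the 8 was higher than in dxo1 under either treatment. After ABA, HB1 was lower in dxo1/cDXO1 than in dxo1 (-0.54 ± 0.11 (SE), adjusted p = 0.00505), and so was PDC1 (-0.43 ± 0.10 (SE), adjusted p = 0.013). PDC1 lost its call without dxo1 replicate 3 (-0.34 (adjusted p = 0.0898)) and without dxo1/cDXO1 replicate 1 (-0.35 (adjusted p = 0.0846)). Lower were 2 of 8, against 2.16% of all genes. Under mock, 0 of 8 passed without a term for the replicate and 0 reached an unadjusted p below 0.05, where 0.319% of all genes were lower. DESeq2 called 0, but it gave no p-value for SUS4, PDC1 and ADH1. For this pair of groups the deviations of same-numbered libraries correlated at 0.111, 0.133 and 0.235. The labels do not say what the replicate number stands for, so this pairing is an assumption drawn from the tested counts themselves. With the replicate number as a block, 6 of 8 were lower, where 2.7% of all genes were. ADH1 was then -0.92 ± 0.06 (SE), adjusted p = 1.84e-10, PDC1 -0.92 ± 0.07 (SE), adjusted p = 5.47e-09, SUS4 -0.70 ± 0.11 (SE), adjusted p = 0.000143, HB1 -0.50 ± 0.08 (SE), adjusted p = 0.000319, LDH1 -0.38 ± 0.09 (SE), adjusted p = 0.00679 and AlaAT1 -0.17 ± 0.05 (SE), adjusted p = 0.0245. For ADH1, dxo1/cDXO1 had the lower level at each of the 3 replicate numbers.

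Other genes of the same metabolism behaved unevenly. Against WT after ABA, the share of all genes that were lower and higher was 21.2% and 22.6% in dxo1, 21.8% and 23.6% in dxo1/cDXO1, 16.6% and 19.7% in rnmt1-3 and 3.38% and 4.62% in dxo1/NTE. Of 25 family paralogs and neighbours (pyruvate-related enzymes, further sucrose synthases and globins), 10 of 24 tested were lower and 3 higher in dxo1 against WT after ABA, 9 and 3 with cDXO1, 4 and 5 of 25 in rnmt1-3, close to the shares of all genes, and 2 and 3 in dxo1/NTE. PPDK (AT4G15530), the dikinase that can turn pyruvate back to phosphoenolpyruvate, was lower in 6 of 8 comparisons with WT, by -1.87 (adjusted p = 7.65e-06) in dxo1 and -2.47 (adjusted p = 1.96e-07) in dxo1/cDXO1 after ABA. HB2 (AT3G10520), 1 of the further globins in this list, was higher in 5 of 8, by 1.26 (adjusted p = 2.6e-08) in dxo1/cDXO1 after ABA. GDH1 (AT5G18170), a glutamate dehydrogenase, was lower in 5 of 8, by -0.69 (adjusted p = 8.27e-05) in dxo1 after ABA. HB1 was lower and HB2 higher in dxo1/cDXO1 after ABA. Of 25 cytosolic glycolysis genes tested after ABA, 7 were higher and 6 lower in dxo1 and 5 and 5 in dxo1/cDXO1, close to even. The pyruvate kinase AT5G63680 was higher in 7 of 8 comparisons (1.03 (adjusted p = 1.53e-07) in dxo1 after ABA), MEE51 (AT4G04040) lower in 7 of 8 (-0.99 (adjusted p = 0.00125) in rnmt1-3 under mock) and GAPC1 (AT3G04120), a glyceraldehyde-3-phosphate dehydrogenase, higher in 6 of 8.

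In the list of other low-oxygen genes, 16 of 40 were lower and 8 higher in dxo1 against WT after ABA (all genes: 21.2% and 22.6%), 19 and 7 of 40 with cDXO1, 15 and 5 of 40 for rnmt1-3 and 1 and 0 of 42 in dxo1/NTE. AT4G27450 was lower in 7 of 8 comparisons, by -3.90 (adjusted p = 8.34e-09) in dxo1/cDXO1 after ABA. ETR2 (AT3G23150), an ethylene receptor, was lower in 7 of 8, by -0.58 (adjusted p = 0.000212) in rnmt1-3 after ABA. AT5G15120 (PCO1, a plant cysteine oxidase that takes part in oxygen sensing) was lower in 6 of 8, by -1.30 (adjusted p = 2.38e-05) in dxo1/cDXO1 after ABA. Compared with mock, ABA lowered 25 and raised 3 of 42 of these genes in WT, and 20 and 4 of 41 in dxo1. It lowered 12 and raised 6 of 42 in dxo1/NTE, 16 and 5 of 38 in dxo1/cDXO1, and 13 and 5 of 39 in rnmt1-3. Of all genes, ABA lowered 6.47% and raised 10% in WT. In the other genotypes it lowered 10.9% to 13.4% and raised 13.6% to 15.4%. Of 11 touch genes, 5 were higher and 0 lower in dxo1 against WT after ABA, 4 higher and 1 lower in dxo1/cDXO1, 1 and 1 in rnmt1-3 and 1 and 0 in dxo1/NTE. ABA against mock lowered 3 and raised 1 of them in dxo1/cDXO1, and lowered 2 and raised 1 in rnmt1-3 and in dxo1. In WT it lowered 2 and raised 0, and in dxo1/NTE it lowered 0 and raised 3. By gene, TCH3 (AT2G41100), a calmodulin-like protein, was higher in 4 of 8 comparisons with WT, DIC2 (AT4G24570), a dicarboxylate carrier, in 3 and TCH2 (AT5G37770) in 2. Of the dark and sugar starvation genes, 5 of 9 were lower in dxo1 after ABA, and SEN1 (AT4G35770) was lower in 6 of 8 comparisons and higher in dxo1/NTE after ABA (0.76 (adjusted p = 0.011)), with DYL1 (AT1G28330) and DIN4 (AT3G13450) lower in 6 of 8 each. Summed dark and sugar starvation genes stood at 668 to 763 CPM in dxo1 after ABA and 846 to 1552 CPM in WT. Within groups this sum did not always keep the order of the fermentation genes. In WT ABA replicates 1 to 3 it was 1552, 846 and 1209 CPM, beside 925, 1789 and 1402 CPM for the 8 genes. In dxo1 mock replicates 1 to 3 the order was shared, at 1185, 1078 and 1365 CPM beside 605, 536 and 1717 CPM. The part of the starvation genes in the result was not tested.

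Across the 10 group means of log2 CPM, the members moved most alike in PDC1 with LDH1 (Pearson r = 0.965) and PDC1 with HB1 (r = 0.948), and least in SUS1 with SUS4 (r = 0.138). ADH1 and SUS1 had r = 0.851. These values describe 10 group means that share libraries and carry the replicate 3 spread. The genes whose group means were most alike, over the 19069 genes that averaged 1 CPM or more, were AT3G18960 (r = 0.986) and ARIA (AT5G19330, r = 0.986) for ADH1. For PDC1 they were AT3G28480 (r = 0.986) and APY1 (AT3G04080, r = 0.976), an apyrase, and for HB1 P4H2 (AT3G06300, r = 0.992), a prolyl 4-hydroxylase, and Mik (AT5G58730, r = 0.986), a myo-inositol kinase. For SUS1 they were AT3G15940 (r = 0.986) and TEM1 (AT1G25560, r = 0.984), and for SUS4 AT3G09550 (r = 0.981) and SNRK2.5 (AT5G63650, r = 0.944). For PDC2 they were AT5G08139 (r = 0.986) and ACBP3 (AT4G24230, r = 0.971), for LDH1 HSI2 (AT2G30470, r = 0.975) and AT5G06180 (r = 0.974), and for AlaAT1 AT3G59910 (r = 0.977) and AT4G25390 (r = 0.955).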

How the data were processed

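Raw read counts per gene, as deposited, were used for 30 libraries in 10 groups of 3. The authors checked reads with FastQC 0.11.8, mapped them with HISAT2 2.2.1 to TAIR10 and counted them with featureCounts of Subread 2.0.8; the annotation version, strand setting and treatment of multimapping reads are not given in the sources used here. The deposited gene length column (unit other) was used for TPM only. Counts were tested with edgeR 4.0.16 (R 4.3.3; TMM, filterByExpr with a minimum count of 10, quasi-likelihood) within the 6 libraries of each of 17 pairwise comparisons, or 12 libraries for each of 4 interactions, and a gene was called at a Benjamini-Hochberg adjusted p below 0.05 over all genes tested. The test was checked on simulated counts, drawn with the same spread for every gene and no pattern shared by replicate number. That check therefore does not cover the wide spread of the mock libraries seen here. Alternatives were RLE scaling, DESeq2 1.42.0, no filter, the study's threshold (unadjusted p below 0.05 and a log2 change over 1), that fold with adjusted p, a fit over 30 libraries, a replicate block, each library left out and, chosen after seeing the data, each replicate number left out. The members and lists were chosen with earlier results of these data known. All 8 genes, the 2 genes most alike each, and up to 3 genes of each list called in most of the 8 comparisons with WT were named. Same-numbered libraries were taken as paired, among the groups compared, only between dxo1 and dxo1/cDXO1 under mock, where all 3 correlations of deviations from group means exceeded 0.1. Upstream windows came from the RefSeq annotation of TAIR10.1, whose exon lengths equal the deposited ones for 32370 of 32548 genes.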

Additional observations from a re-analysis of the deposited data

How the results depend on the processing

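Counts are of the 8 genes called, beside those of the main analysis. With RLE scaling, the number called became 1 for ABA against mock in WT (main 2). With DESeq2, the number called became 0 for ABA against mock in dxo1 (main 3) and ABA against mock in dxo1/cDXO1 (main 3) and ABA against mock in rnmt1-3 (main 2), 1 for rnmt1-3 against WT under mock (main 0) and dxo1/NTE against WT under ABA (main 2) and dxo1/NTE against dxo1 under mock (main 3), 3 for ABA against mock in dxo1/NTE (main 6), 4 for ABA against mock in WT (main 2). For ABA against mock, DESeq2 gave no p-value for SUS4 and ADH1 in dxo1 or for ADH1 in dxo1/cDXO1. Without the filter, the number called became 2 for rnmt1-3 against WT under mock (main 0), 4 for ABA against mock in WT (main 2), 5 for ABA against mock in dxo1 (main 3) and dxo1/NTE against dxo1 under mock (main 3). At an unadjusted p below 0.05 with a 2-fold change, the number called became 0 for dxo1/NTE against WT under ABA (main 2) and dxo1/cDXO1 against dxo1 under ABA (main 2), 1 for the ABA interaction with rnmt1-3 (main 0), 2 for rnmt1-3 against WT under ABA (main 4), 3 for dxo1 against WT under ABA (main 5) and dxo1/cDXO1 against WT under ABA (main 6) and dxo1/NTE against dxo1 under ABA (main 5), 4 for rnmt1-3 against WT under mock (main 0). At the adjusted p with a 2-fold change, the number called became 0 for dxo1/NTE against WT under ABA (main 2) and dxo1/cDXO1 against dxo1 under ABA (main 2), 1 for ABA against mock in rnmt1-3 (main 2), 2 for rnmt1-3 against WT under ABA (main 4), 3 for dxo1 against WT under ABA (main 5) and dxo1/cDXO1 against WT under ABA (main 6) and dxo1/NTE against dxo1 under ABA (main 5). In the fit over all 30 libraries, the number called became 0 for ABA against mock in dxo1 (main 3) and ABA against mock in rnmt1-3 (main 2) and ABA against mock in dxo1/NTE (main 6) and dxo1/NTE against WT under ABA (main 2) and dxo1/NTE against dxo1 under ABA (main 5) and dxo1/cDXO1 against dxo1 under ABA (main 2), 1 for ABA against mock in dxo1/cDXO1 (main 3) and rnmt1-3 against WT under ABA (main 4), 2 for dxo1 against WT under ABA (main 5) and dxo1/cDXO1 against WT under ABA (main 6), 5 for dxo1 against WT under mock (main 2), 6 for ABA against mock in WT (main 2) and rnmt1-3 against WT under mock (main 0). With the replicate number as a block, the number called became 1 for dxo1/NTE against WT under mock (main 0), 3 for rnmt1-3 against WT under mock (main 0), 4 for dxo1 against WT under mock (main 2) and dxo1/NTE against WT under ABA (main 2), 5 for ABA against mock in dxo1 (main 3) and dxo1/NTE against dxo1 under mock (main 3), 6 for dxo1/cDXO1 against dxo1 under mock (main 0). The fit over all 30 libraries shares 1 estimate of spread, so that of the mock libraries enters the ABA comparisons. No other count under these settings moved by over 1.5 times. In the other pairs of groups the 3 correlations of same-numbered libraries were not all over 0.1, so those block counts rest on a number the samples share.

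With 1 library, or all libraries of 1 replicate number, left out, the counts ranged as follows. Between 0 and 7 were called in ABA against mock in WT. Between 1 and 5 were called in ABA against mock in dxo1. Between 1 and 6 were called in ABA against mock in dxo1/cDXO1. Between 1 and 3 were called in ABA against mock in rnmt1-3. Between 1 and 7 were called in ABA against mock in dxo1/NTE. Between 0 and 6 were called in dxo1 against WT under mock. Between 0 and 8 were called in dxo1/cDXO1 against WT under mock, rnmt1-3 against WT under mock, dxo1/NTE against dxo1 under mock. Between 0 and 5 were called in dxo1/NTE against WT under mock. Between 4 and 6 were called in dxo1 against WT under ABA. Between 5 and 7 were called in dxo1/cDXO1 against WT under ABA. Between 3 and 4 were called in rnmt1-3 against WT under ABA. Between 0 and 4 were called in dxo1/NTE against WT under ABA. Between 0 and 2 were called in dxo1/cDXO1 against dxo1 under mock, dxo1/cDXO1 against dxo1 under ABA, the ABA interaction with dxo1/cDXO1. Between 4 and 5 were called in dxo1/NTE against dxo1 under ABA. Between 0 and 1 were called in the ABA interaction with dxo1, the ABA interaction with dxo1/NTE. Between 0 and 3 were called in the ABA interaction with rnmt1-3. The SUS4 change in dxo1 after ABA turned to 0.118 without mock replicate 3 and to 0.120 without all replicate 3 libraries, and the PDC1 change in dxo1/cDXO1 to 0.143 and 0.141. Over all such omissions these changes ranged from -2.39 to 0.120 and from -2.81 to 0.143. Where leaving out libraries left 2 in a group, the remaining spread came from the other libraries of the fit. The lowest count of any of the 8 genes in any library was 113. The cause of the spread between mock libraries was not tested.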
